A study of Homo sapiens with 12 samples.

Results

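The G2 and mitosis genes are 53 genes whose products carry a cell from G2 through chromosome segregation and division, taken from a written list of their known roles. All 53 were among the 28278 genes of the count table, and 46 of them had enough counts to be tested. RNA was counted by MARS-seq, which sequences barcoded cDNA from the 3′ ends of transcripts, in OCI-Ly7, a human cell line grown from a diffuse large B-cell lymphoma. The libraries came from an EZH2 mutant carrying the Y646N gain-of-function change (2 libraries, with replicate 3 not analysed here), a KMT2D mutant (kmt2d-/-, 3 libraries), a double mutant with both changes (3 libraries) and the wild-type line (3 libraries). The mutants were made by CRISPR in OCI-Ly7. All cells share the lymphoma background of that line, and the labels name no drug for any group. The labels do not say whether a mutant is a single clone, nor whether replicates were separate cultures, so the p-values reflect the spread of these libraries, which may be technical.

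Entry into mitosis is driven by CDK1 bound to A- and B-type cyclins, which CDC25 phosphatases switch on and WEE1 holds back. The spindle checkpoint keeps the anaphase-promoting complex (APC/C) from its activator CDC20 until every chromosome is attached, and the complex then marks securin and cyclin B for destruction. Most of these genes are transcribed late in the cell cycle through the MuvB complex with B-MYB and FOXM1 at promoters that carry a cell cycle homology region and CCAAT boxes bound by NF-Y, and the DREAM complex represses them in resting cells. Germinal centre B cells, the normal counterpart of this lymphoma, divide fast, and both EZH2, a histone H3 lysine 27 methyltransferase, and KMT2D, an enhancer histone H3 lysine 4 methyltransferase, are often mutated in the tumours that arise from them.

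Library totals ran from 1118710 to 3107871 counts, and EZH2 mutant replicate 1 was both the shallowest library and the farthest from the others on the first principal components. The counts did not check the genotype labels, since 3′ ends do not read the EZH2 codon and the labels do not say which part of KMT2D was changed. EZH2 averaged 64.6 ± 14.6 normalised CPM (counts scaled to the library total) in the EZH2 mutant, 65.2 ± 0.606 CPM in the KMT2D mutant, 86.9 ± 4.92 CPM in the double mutant and 76.9 ± 7.52 CPM in wild type (SD, n = 2, 3, 3 and 3). KMT2D averaged 30.3 ± 15.4 CPM in the EZH2 mutant, 38.8 ± 3.8 CPM in the KMT2D mutant, 46.2 ± 17.1 CPM in the double mutant and 33.5 ± 9.32 CPM in wild type. Of both genes over the 5 pairwise comparisons, edgeR's quasi-likelihood test called EZH2 in the double mutant against the KMT2D mutant (log2 fold change 0.42, Benjamini-Hochberg adjusted p = 0.03) and nothing else. Summed over 8 markers, B-cell genes lay between 12900 and 22800 CPM in every library. The summed levels of T and NK cell, myeloid, and fibroblast and epithelial markers lay between 0 and 33.6 CPM, with CD3D, S100A8 and COL1A2 at 0 in every library. These are bulk samples, so fewer cells in G2 and mitosis and less RNA of a gene per cell cannot be told apart.

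The promoters of these genes are shown first because 2 motifs stood in most, though not all, of the windows at hand. RefSeq promoter windows (GRCh38.p14, from 250 bases before to 50 bases after the start) were at hand for 46 of the 53 genes. The cell cycle homology region, searched as TTTGAA or TTCGAA on either strand, was found in 34 of these 46 windows (73.9%), against 10.5% of the 7007 windows of all tested genes and 16.6% of all 27305 windows. CCAAT on either strand was found in 36 of 46 (78.3%), against 38.4% of the windows of tested genes and 35.7% of all windows. Both motifs stood in 29 of 46 windows (63.0%), against 4.84% and 6.58%. The windows of CDC25B, CDC25C, CENPE, KIF2C and TACC3 held neither. Among 31 windows of S phase genes, 2 held the homology region (6.45%) and 18 held CCAAT (58.1%). A match is a run of letters in a window and shows no binding.

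The 7 windows below are examples with both motifs or with CCAAT alone, printed 5′ to 3′ on the gene's own strand with the matches in capitals. CDK1 (chr10:60778081-60778380, plus strand), CCNB2 (chr15:59104896-59105195, plus), DLGAP5 (chr14:55191536-55191835, minus), PLK1 (chr16:23678639-23678938, plus) and CDC20 (chr1:43358731-43359030, plus) hold both motifs. NEK2 (chr1:211675572-211675871, minus) and PTTG1 (chr5:160421605-160421904, plus) hold CCAAT without the homology region. TTCAAA is TTTGAA and ATTGG is CCAAT on the opposite strand, and in PTTG1 a CCAAT and its reverse overlap.
CDK1: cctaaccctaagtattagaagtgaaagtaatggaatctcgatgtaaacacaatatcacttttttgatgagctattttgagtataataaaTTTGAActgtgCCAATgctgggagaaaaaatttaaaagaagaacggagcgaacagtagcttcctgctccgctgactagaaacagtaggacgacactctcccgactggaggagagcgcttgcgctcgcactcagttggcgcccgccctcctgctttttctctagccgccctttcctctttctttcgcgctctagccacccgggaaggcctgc
CCNB2: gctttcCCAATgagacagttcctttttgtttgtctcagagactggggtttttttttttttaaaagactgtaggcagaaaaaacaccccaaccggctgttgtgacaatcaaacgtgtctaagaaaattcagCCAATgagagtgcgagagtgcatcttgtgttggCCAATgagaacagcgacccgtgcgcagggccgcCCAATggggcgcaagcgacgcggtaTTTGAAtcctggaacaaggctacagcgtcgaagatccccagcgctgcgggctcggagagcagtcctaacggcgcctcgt
DLGAP5: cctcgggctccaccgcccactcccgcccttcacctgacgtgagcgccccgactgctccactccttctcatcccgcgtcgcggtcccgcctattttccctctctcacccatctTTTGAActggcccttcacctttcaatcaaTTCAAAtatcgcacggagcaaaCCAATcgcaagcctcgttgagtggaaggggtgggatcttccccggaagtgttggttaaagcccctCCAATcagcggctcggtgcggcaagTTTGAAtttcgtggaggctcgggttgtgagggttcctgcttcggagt
PLK1: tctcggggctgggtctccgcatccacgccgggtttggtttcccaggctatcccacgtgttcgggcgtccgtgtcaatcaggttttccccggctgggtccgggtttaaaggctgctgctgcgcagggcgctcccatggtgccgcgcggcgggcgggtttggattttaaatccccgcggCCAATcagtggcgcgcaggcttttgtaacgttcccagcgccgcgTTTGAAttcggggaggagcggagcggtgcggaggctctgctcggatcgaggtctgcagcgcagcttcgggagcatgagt
CDC20: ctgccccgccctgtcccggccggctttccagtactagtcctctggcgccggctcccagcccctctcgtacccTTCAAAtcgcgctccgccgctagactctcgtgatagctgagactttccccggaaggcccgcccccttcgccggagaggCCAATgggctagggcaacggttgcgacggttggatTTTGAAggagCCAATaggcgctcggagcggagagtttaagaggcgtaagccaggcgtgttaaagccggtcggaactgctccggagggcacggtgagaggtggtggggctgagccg
NEK2: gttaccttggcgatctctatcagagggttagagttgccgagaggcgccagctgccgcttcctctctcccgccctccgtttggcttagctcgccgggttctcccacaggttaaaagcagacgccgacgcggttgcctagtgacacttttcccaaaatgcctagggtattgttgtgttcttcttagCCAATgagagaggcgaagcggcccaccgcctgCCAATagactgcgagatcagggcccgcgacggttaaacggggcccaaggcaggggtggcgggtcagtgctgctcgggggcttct
PTTG1: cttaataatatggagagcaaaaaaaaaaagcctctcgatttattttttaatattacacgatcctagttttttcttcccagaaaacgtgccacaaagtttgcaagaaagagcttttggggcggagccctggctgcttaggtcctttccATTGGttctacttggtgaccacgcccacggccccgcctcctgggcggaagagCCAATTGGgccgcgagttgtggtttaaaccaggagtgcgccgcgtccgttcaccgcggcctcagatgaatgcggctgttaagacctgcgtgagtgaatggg
CDK1, CCNB2, DLGAP5, NEK2 and PTTG1 were lower in the EZH2 mutant by the test described next, whereas PLK1 and CDC20, whose windows hold both motifs too, did not pass it. The homology region stood in 15 of 22 windows of members called lower in the EZH2 mutant (68.2%) and in 13 of 18 windows of the other tested members (72.2%). CCAAT stood in 19 of 22 (86.4%) and 14 of 18 (77.8%), and both motifs in 14 of 22 (63.6%) and 12 of 18 (66.7%).

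**Figure D1:**
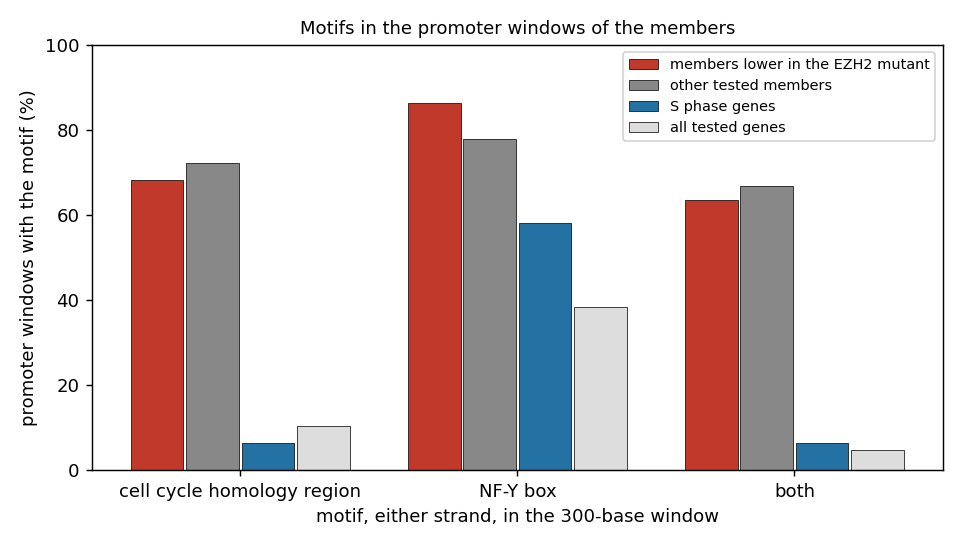
Share of 300-base promoter windows, in percent on the vertical axis, that hold the cell cycle homology region (TTTGAA or TTCGAA), the NF-Y box (CCAAT) or both, for the members lower in the EZH2 mutant (22 windows), the other tested members (18), S phase genes (31) and all tested genes (7007). The first pair of bars stands at 68.2% and 72.2% for the homology region, and S phase genes at 6.45%.

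In the EZH2 mutant, 27 of the 46 tested genes were lower than in wild type and 0 were higher, by edgeR's quasi-likelihood test at a Benjamini-Hochberg adjusted p under 0.05, which is what "called" means throughout. That is 58.7% of the tested members, where 15.1% of all 8813 tested genes were called lower and 17.1% higher. At an unadjusted p under 0.05, 31 were lower and 0 higher, beside 1868 and 1930 of all 8813 genes. DESeq2 called 26 lower and 0 higher, beside 12.7% and 14% of all genes. The fold change was below 0 for 45 of 46 members, against 52.0% of all genes, and CDC20 was the exception at 0.16. Its median was -0.59 on the log2 scale over the members and -0.04 over all genes. For 16 members the call came with a fall of at least 2-fold (10.0% of all genes), and for 32 members both EZH2 mutant libraries lay below all 3 wild-type libraries (27.7% of all genes).

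The count rested in part on single libraries. Leaving out either EZH2 mutant library reduced the members called lower, and all genes called lower as well. As 1 EZH2 mutant library is then left, the size of the change is given here. Without EZH2 mutant replicate 1 the members' median log2 fold change was -0.57 and without replicate 2 -0.74, against -0.02 and -0.08 over all genes. On log2 CPM with a prior count of 2, the median of the members against the wild-type mean was -0.72 in EZH2 mutant replicate 1 and -0.55 in replicate 2, so both libraries lay on the same side. In wild type the same median ran from -0.03 to 0.05. Calls of 10 members held under all 19 alternative settings, and these were CDK1, CDC25B, PTTG1, NEK2, KIF11, KIF20A, KIF23, NUSAP1, PRC1 and MKI67.

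**Figure D2:**
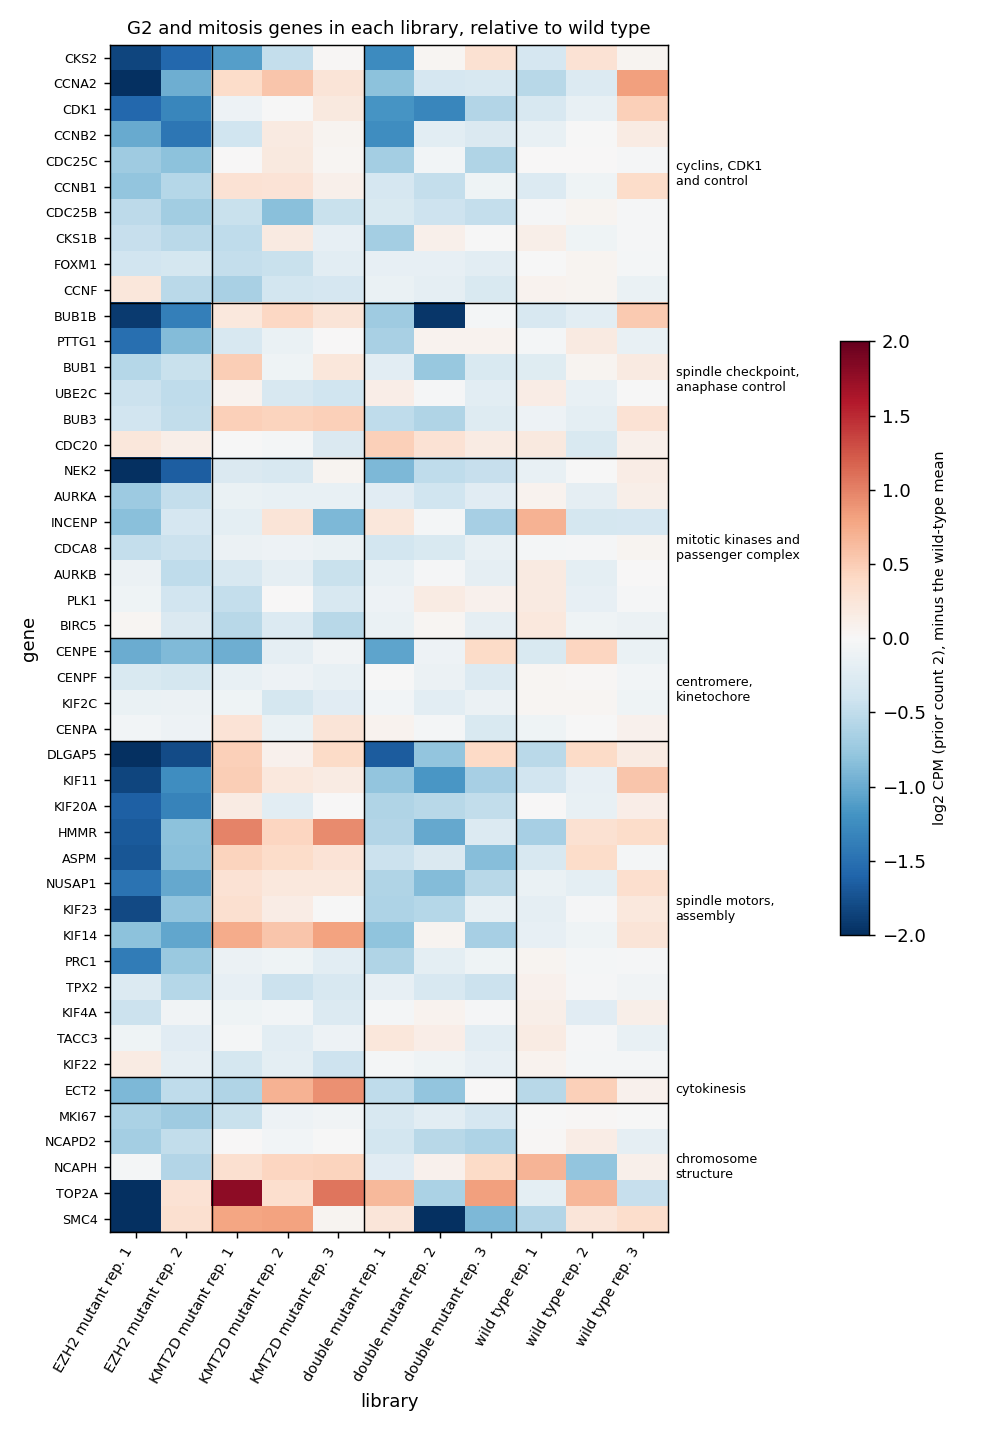
Level of each of the 46 tested members (rows, by role) in each of the 11 libraries (columns), as log2 CPM (prior count 2) minus the wild-type mean. The EZH2 mutant columns are the lowest, with members' medians of -0.72 and -0.55 given above, against -0.35, -0.21 and -0.22 in the double mutant and -0.09, -0.06 and 0.00 in the KMT2D mutant.

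Of cyclins, CDK1 and their controllers, 8 of 10 were lower in the EZH2 mutant, with a median log2 fold change of -0.75. CDK1, the kinase that drives entry into mitosis, had 45.1 and 54.6 CPM in the EZH2 mutant, against 108.1, 122.1 and 189.0 CPM in wild type. The groups did not overlap, and the level fell 2.77-fold (log2 fold change -1.47 ± 0.26 SE, adjusted p = 0.00052). CDC25B, a phosphatase that starts the activation of CDK1, had 277.6 and 246.7 CPM in the EZH2 mutant, against 389.8, 413.1 and 391.8 CPM in wild type. Here too the groups stood apart, with a smaller fall of 1.52-fold (-0.61 ± 0.14, adjusted p = 0.0033). CDC25C, the phosphatase that completes that activation, fell with a log2 fold change of -0.80 ± 0.22 (adjusted p = 0.011).

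All 3 mitotic cyclins of the A and B types fell. CCNA2, which acts from S phase into early mitosis, changed by -1.56 ± 0.45 (adjusted p = 0.02), CCNB1, the main CDK1 partner, by -0.70 ± 0.19 (adjusted p = 0.0087) and CCNB2 by -1.26 ± 0.28 (adjusted p = 0.0042). CKS2, a small CDK-binding protein, changed by -1.71 ± 0.53 (adjusted p = 0.041), while its homologue CKS1B was not called at -0.50 ± 0.21 (adjusted p = 0.086). FOXM1, the transcription factor of late cell cycle genes, fell by 1.29-fold (-0.37 ± 0.13, adjusted p = 0.036). CCNF, an F-box protein of ubiquitin ligases, was not called at -0.14 (adjusted p = 0.59). Several of these calls depended on 1 library: without EZH2 mutant replicate 1 the adjusted p was 0.0749 for CCNB1, 0.147 for CCNA2, 0.198 for CKS2 and 0.166 for FOXM1, and without EZH2 mutant replicate 2 it was 0.0879 for CCNB2, 0.0978 for CDC25C, 0.153 for CKS2 and 0.0932 for FOXM1. FOXM1 also lost its call without wild type replicate 1 (0.0516), and CKS2 without any of 4 further libraries, wild type replicates 2 and 3, KMT2D mutant replicate 2 and double mutant replicate 2 (lowest adjusted p 0.0569). With the GC trend described below removed, CCNB1 was at -0.15 (adjusted p = 0.48), CCNA2 at -1.02 (0.0509) and CKS2 at -1.36 (0.0758), none of them called. With only the compared groups fitted, CCNA2 (0.0571) and FOXM1 (0.0621) lost their calls, as did CKS2 without a filter (0.0744) and FOXM1 with a replicate block (0.0665). Reads of CCNB2 and CKS1B can be shared with pseudogenes (1 and 6 in the annotation), and CCNA2 and FOXM1 end over genes on the opposite strand (EXOSC9 and ITFG2), so their counts are less certain. CCNB2 also ends over a gene on the same strand (AC092757.2).

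Of the checkpoint and anaphase genes, 4 of 6 tested were lower in the EZH2 mutant. PTTG1, which encodes securin, the inhibitor of the protease that cuts cohesin, had 230.4 and 360.9 CPM in the EZH2 mutant, against 644.4, 745.0 and 595.0 CPM in wild type. Both mutant libraries lay well below every wild-type one, and the level fell 2.22-fold (-1.15 ± 0.22, adjusted p = 0.0013). PTTG1 has close paralogs, so part of its counts could come from them. BUB1B, the checkpoint protein BubR1, had 3.07 and 4.96 CPM in the EZH2 mutant, against 11.3, 12.2 and 21.1 CPM in wild type, and fell 3.47-fold (-1.79 ± 0.50, adjusted p = 0.01). These are few counts, the read-through gene BUB1B-PAK6 covers the same end, and without EZH2 mutant replicate 1 the adjusted p was 0.0639.

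BUB3, which brings BUB1 and BUB1B to kinetochores, had 176.2 and 163.3 CPM in the EZH2 mutant, against 215.6, 201.0 and 282.2 CPM in wild type. The groups did not overlap and the fall was 1.38-fold (-0.46 ± 0.16, adjusted p = 0.032), but the call was lost without wild type replicate 3, EZH2 mutant replicate 1 or EZH2 mutant replicate 2 (adjusted p from 0.0819 to 0.147). With the GC trend described below removed, its fold change turned to 0.11, and with only the compared groups (0.0598), a replicate block (0.0786) or both GC and abundance trends removed (0.198) its adjusted p missed the threshold. UBE2C, the ubiquitin-conjugating enzyme of the APC/C, fell 1.39-fold (-0.48 ± 0.16, adjusted p = 0.028) and lost its call without wild type replicate 1, EZH2 mutant replicate 1 or EZH2 mutant replicate 2 (0.0773 to 0.116). CDC20, the APC/C activator, had 328.8 and 302.8 CPM in the EZH2 mutant, against 321.4, 227.5 and 300.9 CPM in wild type. Its groups overlapped and it was not called (0.16 ± 0.16, adjusted p = 0.46), nor was BUB1, the kinase that marks centromeres for protection (-0.53 ± 0.22, adjusted p = 0.074). BUB1, BUB3 and CDC20 have 1 pseudogene each and UBE2C has 4.

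Among the mitotic kinases and the chromosomal passenger complex, 3 of 7 were lower in the EZH2 mutant. NEK2, a kinase that loosens the link between centrosomes, had the smallest p of all members. It had 15.4 and 23.8 CPM in the EZH2 mutant, against 69.0, 76.2 and 85.1 CPM in wild type. The highest mutant library was far below the lowest wild-type one, and the level fell 3.74-fold (-1.90 ± 0.23, adjusted p = 1.2e-05). AURKA, the kinase of centrosomes and spindle poles, had 67.6 and 80.4 CPM in the EZH2 mutant, against 117.7, 99.3 and 122.3 CPM in wild type, which do not overlap (1.51-fold lower, -0.59 ± 0.16, adjusted p = 0.0085). Both genes have 2 pseudogenes, and without EZH2 mutant replicate 1 the adjusted p of AURKA was 0.101.

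The passenger complex was split. CDCA8, its subunit borealin, fell 1.37-fold (-0.46 ± 0.13, adjusted p = 0.014), and lost the call without EZH2 mutant replicate 1 (0.0869) or replicate 2 (0.0536). AURKB, its kinase, was not called (-0.31 ± 0.15, adjusted p = 0.13), nor was its scaffold INCENP (-0.58 ± 0.43, adjusted p = 0.32). BIRC5, its subunit survivin, had 466.0 and 371.8 CPM in the EZH2 mutant, against 525.1, 428.4 and 420.2 CPM in wild type, with overlapping groups (-0.13 ± 0.15, adjusted p = 0.52). PLK1, the polo kinase needed for spindle formation and entry into mitosis, had 250.9 and 204.0 CPM in the EZH2 mutant, against 302.1, 236.7 and 261.4 CPM in wild type (-0.23, adjusted p = 0.28). The groups overlapped for PLK1 as well.

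None of the 4 tested centromere and kinetochore genes was called by edgeR, though 2 had an unadjusted p under 0.05 and DESeq2 called 1 lower. CENPF, a large kinetochore protein that accumulates in G2, had 168.0 and 163.3 CPM in the EZH2 mutant, against 213.3, 211.8 and 199.3 CPM in wild type. The groups did not overlap, and the difference missed the threshold (-0.33 ± 0.14, adjusted p = 0.067). CENPE, the kinetochore motor that moves chromosomes to the metaphase plate, had 17.4 and 18.9 CPM in the EZH2 mutant, against 28.9, 48.3 and 32.6 CPM in wild type (-1.02 ± 0.42, adjusted p = 0.076). CENPA, the centromeric histone H3 variant, stood at -0.09 (adjusted p = 0.72) and KIF2C, a kinesin that takes microtubules apart at centromeres, at -0.13 (adjusted p = 0.46).

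Spindle motors and assembly factors held the largest number of calls, with 10 of 13 tested genes lower in the EZH2 mutant and a median of -1.15. KIF20A, a kinesin of the central spindle, had 16.4 and 20.4 CPM in the EZH2 mutant, against 53.2, 47.6 and 57.9 CPM in wild type. Each mutant library was under every wild-type one, and the level fell 2.80-fold (-1.49 ± 0.22, adjusted p = 5.7e-05). NUSAP1, which bundles spindle microtubules at chromosomes, had 66.6 and 91.3 CPM in the EZH2 mutant, against 171.4, 162.5 and 235.4 CPM in wild type. It fell as clearly, with no overlap (-1.24 ± 0.19, adjusted p = 7.9e-05). KIF11, the motor that pushes spindle poles apart, had 19.5 and 29.8 CPM in the EZH2 mutant, against 54.9, 64.3 and 106.2 CPM in wild type (-1.55 ± 0.29, adjusted p = 0.00067). KIF23, the motor subunit of centralspindlin, changed by -1.15 ± 0.25 (adjusted p = 0.0017) and PRC1, which bundles the central spindle, by -1.0 ± 0.19 (adjusted p = 0.00062).

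The other 5 called motors and assembly factors were less stable. DLGAP5, which stabilises kinetochore fibres, had the largest fall of all members (-2.23 ± 0.59, adjusted p = 0.0098), with 3.07 and 4.47 CPM in the EZH2 mutant against 11.9, 23.5 and 19.9 CPM in wild type. Its libraries do not overlap, but the call was lost without EZH2 mutant replicate 1 (0.0714) or replicate 2 (0.0838). HMMR, a spindle pole protein that binds hyaluronan, changed by -1.38 (adjusted p = 0.036), KIF14, a kinesin of the midbody, by -1.06 (adjusted p = 0.025), ASPM, a spindle pole protein, by -1.27 (adjusted p = 0.018) and TPX2, the activator of AURKA on the spindle, by -0.43 (adjusted p = 0.029). HMMR lost its call without either EZH2 mutant library, wild type replicate 2 or wild type replicate 3 (adjusted p 0.0633 to 0.185) and KIF14 without either EZH2 mutant library or wild type replicate 3 (0.0677 to 0.19). ASPM lost it without EZH2 mutant replicate 1 (0.139) or wild type replicate 2 (0.0604), and TPX2 without EZH2 mutant replicate 2 (0.25) or wild type replicate 1 (0.0664). Removing the GC trend left HMMR (-0.95, adjusted p = 0.102), KIF14 (-0.54, 0.271), ASPM (-0.77, 0.133) and TPX2 (-0.34, 0.0647) without a call. DESeq2 called neither HMMR (0.0734) nor KIF14 (0.0565), and HMMR was not called with only the compared groups (0.067) or a replicate block (0.0772). KIF4A, a chromosome-bound kinesin with the close copy KIF4B, KIF22, another chromosome-bound kinesin, and TACC3, a spindle protein phosphorylated by AURKA, were not called (-0.22, -0.004 and -0.16). Antisense genes or genes on the opposite strand lie over the ends of KIF20A, PRC1 and HMMR, and DLGAP5 has 1 pseudogene. NUSAP1 and PRC1 end over genes on the same strand (AC087721.2 and AC068831.7), so their counts are less certain too.

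Of 5 tested chromosome structure genes, 2 were lower. MKI67, the proliferation antigen that coats mitotic chromosomes, had 91.2 and 86.4 CPM in the EZH2 mutant, against 140.3, 144.9 and 140.3 CPM in wild type. The libraries within each group lay close together, and the level fell 1.60-fold (-0.68 ± 0.16, adjusted p = 0.0028). NCAPD2, a condensin I subunit, had 214.1 and 243.2 CPM in the EZH2 mutant, against 348.5, 381.2 and 302.9 CPM in wild type (-0.585 ± 0.15, adjusted p = 0.0039), and without EZH2 mutant replicate 1 its adjusted p was 0.0556. MKI67 and NCAPD2 have 1 pseudogene each. TOP2A, the topoisomerase that untangles chromosomes, had 0 counts in EZH2 mutant replicate 1, where 3 counts are 3.07 CPM, and 19.4 CPM in replicate 2, against 13.6, 25.5 and 11.1 CPM in wild type, and was not called (adjusted p = 0.7). ECT2, which activates RhoA for cytokinesis, had 2.05 and 2.98 CPM in the EZH2 mutant, against 2.83, 6.80 and 4.98 CPM in wild type, with overlapping groups (-0.92, adjusted p = 0.35). The 7 genes too low to test, ANLN, KIF18A, KIF20B, MAD2L1, NCAPG, SMC2 and TTK, had between 0 and 15 counts in any library.

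Few of these genes were called after loss of KMT2D alone, as over all genes. In the KMT2D mutant 1 member was called higher and 3 lower than in wild type, 2.17% and 6.52% of those tested. Of all genes 3.18% were called higher and 4.48% lower, so both counts lie near the background. The members' median was -0.11 on the log2 scale. CDC25B had 293.3, 223.5 and 292.2 CPM in the KMT2D mutant, against 389.8, 413.1 and 391.8 CPM in wild type. It did not overlap (1.47-fold lower, -0.56 ± 0.12, adjusted p = 0.0068) and was the 1 call held under all 19 alternatives. BIRC5 had 308.9, 375.9 and 310.2 CPM in the KMT2D mutant, against 525.1, 428.4 and 420.2 CPM in wild type (-0.47 ± 0.13, adjusted p = 0.034).

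BUB3 had 319.5, 314.8 and 319.8 CPM in the KMT2D mutant, against 215.6, 201.0 and 282.2 CPM in wild type. It was the only member called higher (0.45 ± 0.14, adjusted p = 0.046), and DESeq2 did not call it (adjusted p = 0.0684). FOXM1 had 219.6, 223.5 and 261.5 CPM in the KMT2D mutant, against 302.7, 314.5 and 296.3 CPM in wild type (-0.37 ± 0.11, adjusted p = 0.048). With all libraries kept, FOXM1 missed the threshold under upper-quartile factors (adjusted p = 0.0598) and a replicate block (0.0645). It also did so with the GC trend described below removed (0.0544) and with GC and abundance trends removed (0.16). BUB3 missed it under RLE factors (0.0567) and with the GC trend removed (0.286). The calls of BIRC5, BUB3 and FOXM1 all depended on single libraries. BIRC5 lost its call without wild type replicate 1, KMT2D mutant replicate 1 or KMT2D mutant replicate 3 (adjusted p 0.163 to 0.182), BUB3 without any KMT2D mutant library, wild type replicates 1 or 2, or double mutant replicates 1 or 2 (0.0532 to 0.196), and FOXM1 without any 1 library of wild type, the KMT2D mutant or the double mutant (0.0539 to 0.22). CDK1 had 126.7, 135.6 and 155.1 CPM in the KMT2D mutant, inside the range of wild type (108.1 to 189.0 CPM), and was not called (-0.01, adjusted p = 0.98).

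With both changes combined, 8 members were lower in the double mutant than in wild type and 0 higher, which is 17.4% of those tested, where 11.6% of all genes were called lower and 12.1% higher. At an unadjusted p under 0.05, 16 were lower and 1 higher, beside 1534 and 1608 of all 8813 genes. DESeq2 also called 8 lower and 0 higher, beside 9.36% and 8.74% of all genes. The fold change was below 0 for 41 of 46 members (51.0% of all genes), with a median of -0.29. This comparison uses the same wild-type libraries as the preceding ones, so their values stand side by side only. CDK1 had 59.2, 54.4 and 90.1 CPM in the double mutant, against 108.1, 122.1 and 189.0 CPM in wild type, and fell without overlap (-1.04 ± 0.21, adjusted p = 0.0023). NUSAP1 had 122.4, 102.0 and 126.7 CPM in the double mutant, against 171.4, 162.5 and 235.4 CPM in wild type (-0.69 ± 0.16, adjusted p = 0.0031).

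NCAPD2 had 265.0, 232.6 and 223.7 CPM in the double mutant, against 348.5, 381.2 and 302.9 CPM in wild type (-0.52 ± 0.12, adjusted p = 0.0049). Together with KIF11 (-0.92 ± 0.23, adjusted p = 0.0078), CDK1 and NUSAP1 it was called under all 19 alternatives. The calls of NEK2 (-0.64, adjusted p = 0.013), BUB3 (-0.47, adjusted p = 0.019), KIF20A (-0.56, adjusted p = 0.02) and CDC25B (-0.40, adjusted p = 0.025) were each lost on leaving out a library. The adjusted p of NEK2 was 0.085 without double mutant replicate 1. CDC25B reached 0.0771 and 0.0561 without double mutant replicates 2 and 3. BUB3 (0.079 to 0.119) and KIF20A (0.0557 to 0.0733) lost theirs without wild type replicate 3, double mutant replicate 1 or double mutant replicate 2. With the GC trend described below removed, NEK2 (-0.29, adjusted p = 0.189) and BUB3 (-0.17, 0.406) were not called either. PTTG1 had 419.5, 693.3 and 692.2 CPM in the double mutant, across the wild-type range of 595.0 to 745.0 CPM (-0.14 ± 0.19, adjusted p = 0.64).

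Set against the KMT2D mutant, the same EZH2 change gave 15 members lower and 2 higher in the double mutant. The 15 are 32.6% of the tested members, where 20.8% of all genes were called lower and 21.2% higher. Spindle motors and assembly factors held 7 of the 15. BUB3 had 162.4, 151.1 and 191.8 CPM in the double mutant, against 319.5, 314.8 and 319.8 CPM in the KMT2D mutant. The groups lay far apart, and it had the smallest p of the members here (1.89-fold lower, -0.92 ± 0.14, adjusted p = 4.2e-05). NUSAP1 had 122.4, 102.0 and 126.7 CPM in the double mutant, against 229.1, 216.2 and 216.4 CPM in the KMT2D mutant (-0.91 ± 0.15, adjusted p = 0.00013). CDK1 had 59.2, 54.4 and 90.1 CPM in the double mutant, against 126.7, 135.6 and 155.1 CPM in the KMT2D mutant (-1.03 ± 0.21, adjusted p = 0.0012).

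With KIF11 (-1.16), KIF14 (-1.24), HMMR (-1.56) and NCAPD2 (-0.49), these 3 made up the 7 lower calls that held under all alternatives. NEK2 had 40.5, 53.6 and 55.2 CPM in the double mutant, against 62.8, 61.1 and 79.7 CPM in the KMT2D mutant (-0.46 ± 0.18, adjusted p = 0.044). With the GC trend removed its fold change turned to 0.12 (adjusted p = 0.564), and 6 further calls were lost, with CCNB1 at -0.03 (0.888), KIF23 at -0.02 (0.918), BUB1 at -0.19 (0.377), ASPM at -0.42 (0.253), BUB1B at -0.66 (0.116) and KIF20A at -0.37 (0.0701). DESeq2 called neither NEK2 (0.0615) nor CDC25C (0.0533). NEK2 and the other 7 lower calls each depended on a KMT2D mutant or double mutant library. Without KMT2D mutant replicate 1 the adjusted p was 0.0543 for NEK2, 0.0531 for ASPM, 0.0711 for BUB1, 0.0632 for BUB1B, 0.0582 for CCNB1, 0.0615 for KIF20A and 0.104 for KIF23, and without KMT2D mutant replicate 2 it was 0.0594 for CDC25C. BUB1B also lost its call without KMT2D mutant replicates 2 or 3 and double mutant replicates 1 or 2 (highest 0.133), NEK2 without KMT2D mutant replicate 3 and double mutant replicates 1 or 2 (0.196), CCNB1 (0.0739) and KIF23 (0.104) without double mutant replicates 1 or 2, BUB1 without double mutant replicate 2 (0.0568), CDC25C without double mutant replicates 1 or 3 (0.12) and ASPM without double mutant replicate 3 (0.0568).

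BIRC5 had 416.0, 466.0 and 401.0 CPM in the double mutant, against 308.9, 375.9 and 310.2 CPM in the KMT2D mutant (0.37 ± 0.13, adjusted p = 0.032). CDC20 was the other member called higher (0.43, adjusted p = 0.02), with 391.8, 343.6 and 314.4 CPM in the double mutant, against 279.9, 273.9 and 229.0 CPM in the KMT2D mutant. Both sets of libraries stood apart. CDC20 lost its call without KMT2D mutant replicate 3 (0.149) or double mutant replicate 1 (0.121), and BIRC5 without KMT2D mutant replicates 1 or 3 or any double mutant library (0.0518 to 0.153). Upper-quartile factors (0.096 for CDC20 and 0.142 for BIRC5) and removal of GC and abundance trends (0.505 and 0.626) ended both calls. CDC25B was not called (0.16, adjusted p = 0.32), although it was lower in each mutant than in wild type.

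The EZH2 change can be followed in both KMT2D backgrounds, because the EZH2 mutant against wild type and the double mutant against the KMT2D mutant share no library. Of the 46 members, 30 had the same sign in both (65.2%), against 78.1% of all genes. The members called lower in both numbered 14, which is 14 of 27 in the first comparison (51.9%) and 14 of 15 in the second (93.3%), and the member outside it was BUB1. Over all genes 820 were called lower in both, 61.4% of the 1335 in the first and 44.8% of the 1831 in the second. Pearson's r across the members was 0.579, against 0.649 across all genes. Genes are not independent replicates, share libraries and sequence properties, and were given no p. For 38 of the 46 the log2 fold change was higher in the KMT2D-lacking background, against 4401 of all 8813 genes (49.9%). For the loss of KMT2D, with and without the EZH2 change, 19 of 46 members had the same sign (41.3%, against 56.0% of all genes) and r was 0.158 across members and 0.0993 across all genes.

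**Figure D3:**
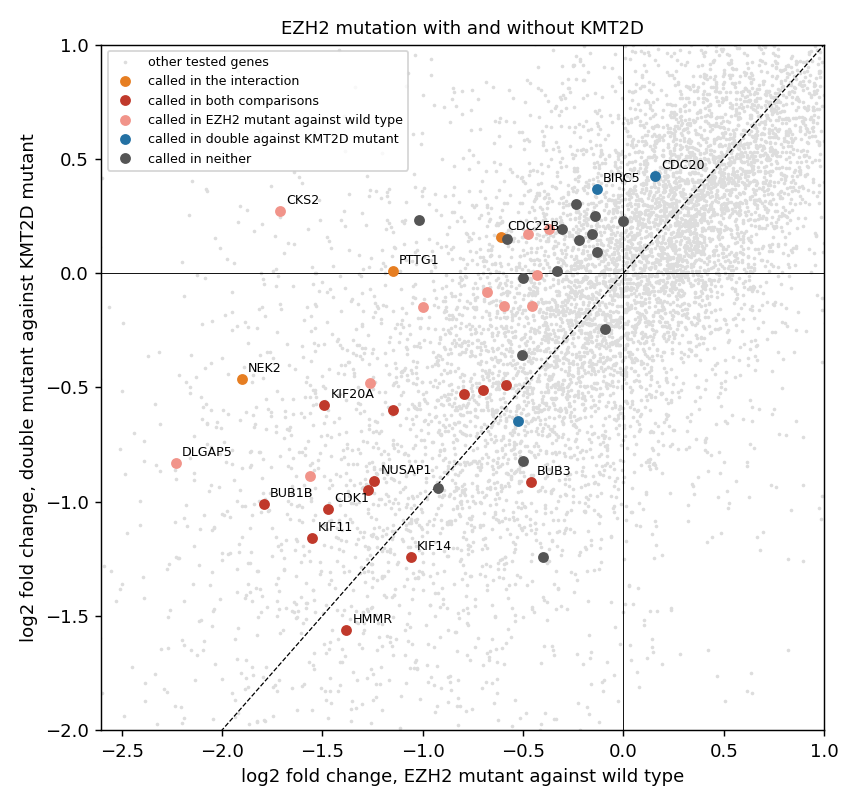
Log2 fold change of the 46 tested members in the double mutant against the KMT2D mutant (vertical axis) and in the EZH2 mutant against wild type (horizontal axis), coloured by where they were called, over the other tested genes in grey, some of which lie outside the axes. Points above the dashed line of equal change, 38 of 46 members, had the higher fold change without KMT2D (49.9% of all genes), and NEK2, PTTG1 and CDC25B were called in the interaction.

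Between the mutants that carry the EZH2 change, 3 members were higher in the double mutant than in the EZH2 mutant and 0 lower, where 0.715% of all genes were called higher and 1.58% lower. At an unadjusted p under 0.05, 11 were higher and 0 lower, beside 578 and 771 of all 8813 genes. DESeq2 called 2 higher and 0 lower, beside 0.738% and 1.62% of all genes. The fold change was below 0 in only 4 of 46 members (50.9% of all genes), with a median of 0.36. For 21 members all double mutant libraries lay above both EZH2 mutant libraries (13.3% of all genes). The same EZH2 mutant libraries served in the comparison with wild type, so the 2 results are not independent. NEK2 had 40.5, 53.6 and 55.2 CPM in the double mutant, against 15.4 and 23.8 CPM in the EZH2 mutant (1.26 ± 0.24, adjusted p = 0.0062). PTTG1 had 419.5, 693.3 and 692.2 CPM in the double mutant, against 230.4 and 360.9 CPM in the EZH2 mutant (1.01 ± 0.22, adjusted p = 0.026). KIF20A had 34.5, 35.5 and 37.2 CPM in the double mutant, against 16.4 and 20.4 CPM in the EZH2 mutant (0.92 ± 0.23, adjusted p = 0.035).

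None of the 3 calls held without EZH2 mutant replicate 1, where the adjusted p was 0.0749 for NEK2, 0.205 for PTTG1 and 0.205 for KIF20A. Without double mutant replicate 1, in turn, 7 members were called higher, where 1.46% of all genes were, against 0.715% with all libraries. PTTG1 also lost its call without double mutant replicates 2 or 3 (lowest adjusted p 0.0795), and KIF20A without KMT2D mutant replicate 3, EZH2 mutant replicate 2 or double mutant replicates 2 or 3 (lowest 0.0539). With only the compared groups fitted, the adjusted p was 0.171 for PTTG1 and 0.119 for KIF20A, and DESeq2 did not call KIF20A (0.0743).

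Whether the EZH2 change acted differently without KMT2D was tested as an interaction, the EZH2 effect in the KMT2D-lacking background minus that in the KMT2D-carrying one. It reuses the libraries of the comparisons above, and its sign is what was counted there for 38 of 46 members. The test called 3 members higher and 0 lower, where 1.5% of all genes were called higher and 1.52% lower. At an unadjusted p under 0.05, 15 were higher and 1 lower, beside 730 and 652 of all 8813 genes. DESeq2 called 3 higher and 0 lower, beside 1.45% and 1.33% of all genes. The median over the members was 0.41. NEK2 had the largest of these interactions (1.44 ± 0.30, adjusted p = 0.0091), from a fold change of -0.46 with KMT2D absent and -1.90 with KMT2D present, and it held under all 18 alternatives. For CDC25B it was 0.77 ± 0.19 (adjusted p = 0.03), from 0.16 and -0.61, and for PTTG1 it was 1.16 ± 0.29 (adjusted p = 0.043), from 0.01 and -1.15.

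The calls of CDC25B and PTTG1 were lost on leaving out a library. CDC25B did so without wild type replicate 3, KMT2D mutant replicate 2, EZH2 mutant replicate 2 or double mutant replicate 2 (adjusted p 0.052 to 0.119). PTTG1 did so without any 1 of 9 libraries, all but EZH2 mutant replicate 2 and double mutant replicate 1 (0.0583 to 0.123), and its adjusted p was also 0.0682 with upper-quartile factors and 0.0544 with GC and abundance trends removed.

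**Figure D4:**
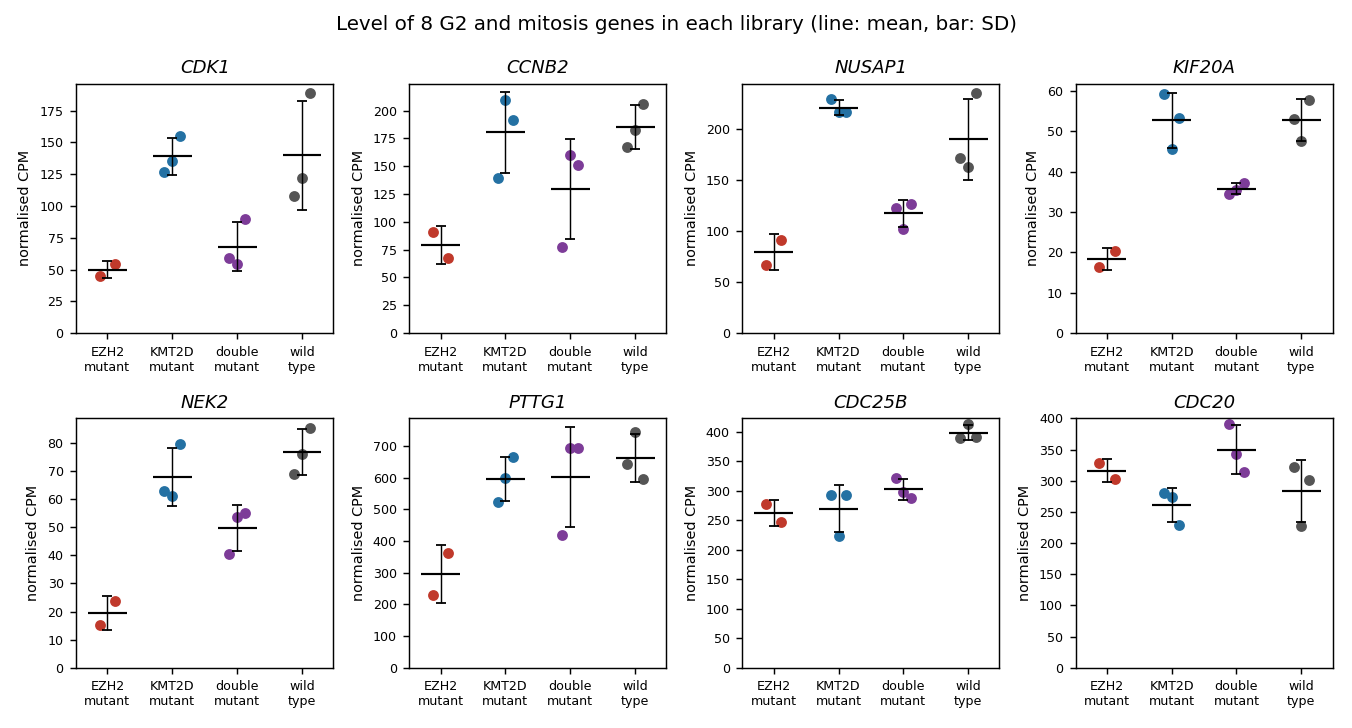
Normalised level in CPM of 8 members in the EZH2 mutant, KMT2D mutant, double mutant and wild type, with 1 point per library, a line at the group mean and bars of 1 SD (n = 2, 3, 3 and 3). NEK2 lies at 15.4 and 23.8 CPM in the EZH2 mutant and between 40.5 and 55.2 CPM in the double mutant, against 69.0 to 85.1 CPM in wild type.

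Base composition and abundance moved with these fold changes. The last 500 bases of the transcripts, close to what 3′ counting reads, had a median GC content of 42.5% in the 46 members (29.6 to 57.6%) and 44.8% in all tested genes. Across the members, Pearson's r between GC content and log2 fold change was 0.613 in the EZH2 mutant against wild type, 0.767 in the double mutant against the KMT2D mutant and -0.635 in the KMT2D mutant against wild type. Across all genes it was 0.281, 0.268 and -0.248. Between log2 mean CPM and log2 fold change, r in the same order was 0.425, 0.654 and -0.644 across the members. Over all genes these values were 0.351, 0.353 and -0.21. Of the 23 members with the lower GC content, 15 were lower in the EZH2 mutant than in wild type (20.1% of all genes in that range), with a median of -1.15, and of the 23 with the higher content, 12 were lower (11.3% of all genes in that range), with a median of -0.48. In the double mutant against the KMT2D mutant these counts were 13 and 2, where 27.5% and 15.3% of all genes in these ranges were called lower.

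With the GC trend over all genes removed, 21 members were called lower in the EZH2 mutant against wild type, 6 in the double mutant against wild type and 8 in the double mutant against the KMT2D mutant. Of all genes, 12.3%, 10.3% and 17.0% were then called lower, so that the 8 of 46 members in the last comparison lie near the background. With GC and abundance trends removed the members called lower were 31, 20 and 13, where 13.7%, 12% and 18.6% of all genes were. CDK1, NUSAP1, KIF11 and NCAPD2 were called lower in all 3 comparisons under both corrections. The part of base composition beyond these corrections was not tested.

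**Figure D5:**
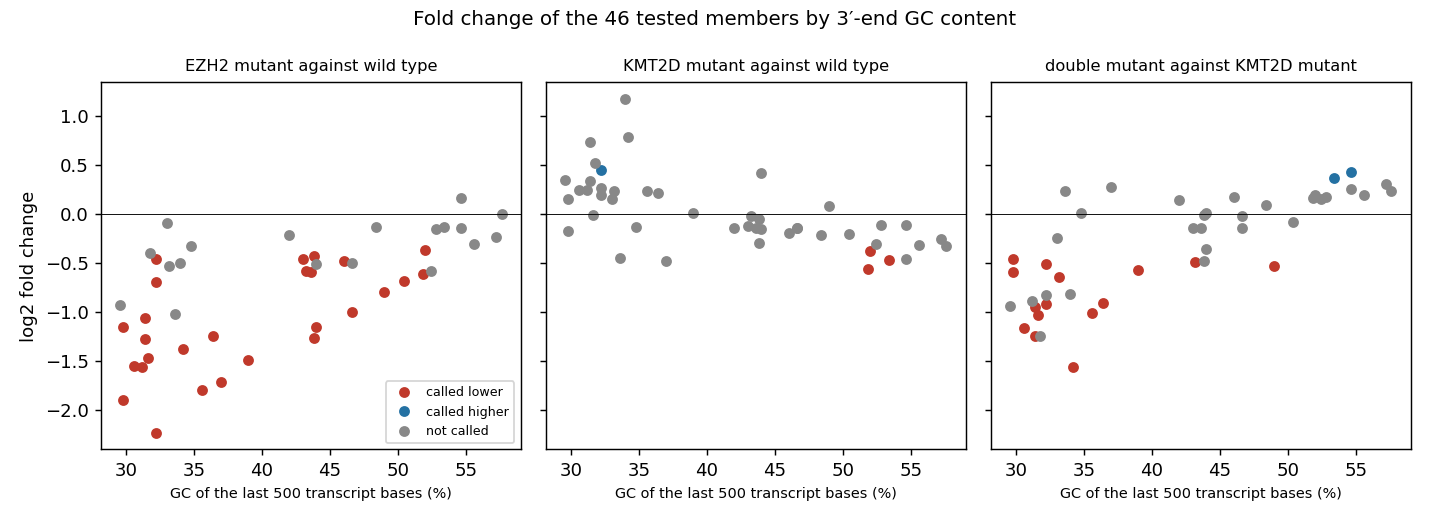
Log2 fold change of the 46 tested members, on the vertical axis, by GC content of the last 500 transcript bases in percent, in 3 comparisons, with called members in colour. Members of low GC content lie lowest in the EZH2 mutant against wild type (r = 0.613) and in the double mutant against the KMT2D mutant (r = 0.767), and highest in the KMT2D mutant against wild type (r = -0.635).

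Of 17 tested genes of MuvB, DREAM and their partners, a list that also holds the CDK inhibitor gene CDKN1A, 6 were higher and 6 lower in the EZH2 mutant than in wild type, where 17.1% of all genes were called higher and 15.1% lower. CDKN1A, which encodes the CDK inhibitor p21, averaged 52.4 ± 5.98 CPM in the EZH2 mutant, 9.13 ± 1.71 CPM in the KMT2D mutant, 44.3 ± 4.79 CPM in the double mutant and 13.6 ± 0.81 CPM in wild type (SD, n = 2, 3, 3 and 3). It rose in the EZH2 mutant against wild type (log2 fold change 1.96, adjusted p = 4e-06), in the double mutant against wild type (1.70, adjusted p = 7e-06) and in the double mutant against the KMT2D mutant (2.26, adjusted p = 1.9e-07). E2F4, a repressor E2F of DREAM, rose in the same 3 comparisons (0.98, 0.63 and 0.86). E2F5, also on the list, fell in all 3 (-0.80, -0.92 and -1.34, adjusted p = 0.046, 0.015 and 0.00046). RBL2, another listed gene, fell in the EZH2 mutant against wild type (-1.92, adjusted p = 0.039) and in the double mutant against the KMT2D mutant (-2.10, adjusted p = 0.003). RBL1, the pocket protein p107, fell in the EZH2 mutant (-1.79, adjusted p = 0.0013). The MuvB subunits LIN54 (-2.05) and RBBP4 (-0.89) fell there too, whereas MYBL2, which encodes B-MYB, was higher (0.49, adjusted p = 0.0083).

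Of 31 tested regulators of mitotic entry and exit, 2 were higher and 9 lower in the EZH2 mutant than in wild type, again beside 17.1% and 15.1% of all genes. The lower ones included WEE1, the kinase that restrains CDK1 (-0.94, adjusted p = 0.0035), KIF2A, a microtubule-depolymerising kinesin (-1.60, adjusted p = 0.0015), and PPP1CC, a phosphatase subunit of mitotic exit (-1.39, adjusted p = 0.0041). Among 33 further kinetochore genes, 1 was higher and 11 lower. CENPX, of the centromere network, was the higher one (1.14, adjusted p = 1.3e-05), and KNTC1, which recruits dynein to kinetochores, was among the lower (-2.53, adjusted p = 0.00072). Of 14 cohesin and condensin II genes, 0 were higher and 5 lower. NCAPG2, a condensin II subunit, fell (-1.38, adjusted p = 0.00013), as did the cohesin loader NIPBL (-1.08, adjusted p = 0.0049). Of 15 APC/C genes, 2 were higher and 3 lower, which is near those shares.

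Of 33 tested S phase genes, 4 were higher and 4 lower in the EZH2 mutant than in wild type (17.1% and 15.1% of all genes), and their median log2 fold change was 0.04. RRM2, a subunit of ribonucleotide reductase, fell (-1.08, adjusted p = 0.00058), as did the licensing factor CDT1 (-0.63, adjusted p = 0.0041), while FEN1, the nuclease that trims Okazaki fragments, rose (0.56, adjusted p = 0.0067). In the double mutant against the KMT2D mutant 10 S phase genes were higher and 3 lower, with a median of 0.29, where the members had 2 higher and 15 lower and 21.2% and 20.8% of all genes were called higher and lower. In that comparison the replicative helicase subunit MCM4 rose (0.74, adjusted p = 0.00011), as did FEN1 (0.79, adjusted p = 0.00011) and CDC45, a subunit of the active helicase (0.69, adjusted p = 0.00045). The KMT2D mutant itself had 0 S phase genes higher and 5 lower than wild type (3.18% and 4.48% of all genes), with a median of -0.28. These 5 included MCM4 (-0.53), FEN1 (-0.52) and CDC45 (-0.46). Against wild type the double mutant had 0 higher and 2 lower (12.1% and 11.6% of all genes), with MCM4, FEN1 and CDC45 not called. The difference between the lists was not tested.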

How the data were processed

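The authors deposited counts per gene for 11 libraries. The deposited table calls the counts corrected without saying for what. Trim Galore 0.6.0, cutadapt 1.15, FastQC, STAR 2.7.0f and DESeq2 are named, without their roles, per the submitters' processing notes. How reads were assigned to genes, on which build and annotation and with which strand setting, is not given in the sources used here. Of 28278 genes, 13188 were at 0 in every library. Columns marked DM were read as the double mutant, and EZH2 mutant replicate 3 had no column and was not analysed here.

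The tests used edgeR 4.0.16 under R 4.3.3 (robust quasi-likelihood F-test, TMM scaling, filterByExpr with a minimum count of 10, which kept 8813 genes, and dispersions over all 11 libraries). P-values were adjusted by Benjamini-Hochberg over all tested genes with a threshold of 0.05, and standard errors are the log2 fold change divided by the root of F. The fit was checked on simulated data. Between the deepest library (3107871 counts) and the shallowest (1118710), 3 counts are worth 0.914 to 3.07 CPM, scaled by TMM like all CPM given. These limits cover counting error only.

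Members and lists were chosen with earlier results of these data known. Values by library are given for the 2 members of each role with the smallest p in the EZH2 mutant, the 1 with the smallest p among those called in each other comparison, and those called in the interaction; PLK1, CDC20, KIF11, DLGAP5, TOP2A and FOXM1 were added after their values were seen. Up to 3 called genes of each further list with the smallest p in a comparison are named. LIN54, RBBP4, MYBL2, E2F5 and RBL2 were added after their values were seen. Alternatives were DESeq2 1.42.0, upper-quartile or RLE factors, testing all 15090 genes with a count, only the groups compared, a replicate block, leaving out each library and, added after the data were seen, removal of a GC trend and of GC and abundance trends (splines of 5 degrees of freedom, last 500 bases of the longest GENCODE 29 transcript). Promoter windows from RefSeq matched 46 of 53 members. Figures were drawn with matplotlib 3.10.9 and tables made with pandas 2.3.3 in Python 3.11.15.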

Additional observations from a re-analysis of the deposited data

Results flagged for a closer look

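For 3 members the effect of the EZH2 change differed between cells without and with KMT2D by the interaction test in edgeR. The interaction was 1.44 on the log2 scale for NEK2, which was lower by the EZH2 change in both backgrounds, 1.16 for PTTG1 and 0.768 for CDC25B, which were lower by it in the background with KMT2D and not called in the one without. The direction of each interaction was the same in all alternatives run. The call of NEK2 held in each, and those of PTTG1 and CDC25B did not hold on leaving out some of the libraries, as given above. PTTG1 also missed the threshold with upper-quartile factors (adjusted p = 0.0682) and with GC and abundance trends removed (0.0544). The lower call of NEK2 in the background without KMT2D was itself unstable. DESeq2 did not make it (adjusted p = 0.0615), and it was lost on leaving out some of the libraries. With the GC trend removed this fold change was 0.12, and with GC and abundance trends removed -0.21 (adjusted p = 0.295).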

How the results depend on the processing

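Over 62 calls of members and 1175 alternative values, 1003 kept their call, 170 kept the direction and lost the call, and 2 reversed, both with the GC trend removed (BUB3 in the EZH2 mutant against wild type, 0.11, and NEK2 in the double mutant against the KMT2D mutant, 0.12). For the EZH2 mutant against wild type the count of members called lower stayed within 1.5 times under every setting that kept all libraries. In the KMT2D mutant against wild type, members called higher numbered 0 under RLE factors, DESeq2 and GC trend removal, and 2 with only the groups compared. In the double mutant against wild type, members called lower numbered 13 under upper-quartile factors and 20 with GC and abundance trends removed. In the double mutant against the KMT2D mutant, members called higher numbered 0 under upper-quartile factors and with GC and abundance trends removed and 1 by DESeq2, and 8 were lower with the GC trend removed. In the double mutant against the EZH2 mutant, members called higher numbered 6 without a filter, 1 with only the groups compared and 7 with GC and abundance trends removed, and all genes called 381, 92 and 347, with 319 under GC trend removal. For the interaction, members called higher numbered 7 without a filter, 8 with the GC trend removed and 7 with both trends removed, and all genes called 482, 446 and 471. The cause was not tested. Leaving out 1 library gave 13 to 30 members lower and 1779 to 2874 genes called in the EZH2 mutant against wild type, 0 to 3 higher, 1 to 4 lower and 339 to 802 genes in the KMT2D mutant against wild type, and 5 to 9 lower and 1381 to 2286 genes in the double mutant against wild type. It gave 0 to 3 higher, 10 to 16 lower and 2708 to 3885 genes in the double mutant against the KMT2D mutant, 0 to 7 higher and 99 to 242 genes in the double mutant against the EZH2 mutant, and 1 to 7 higher and 147 to 309 genes for the interaction. Whether same-numbered libraries pair was not settled by their correlations. Of 15 correlations of their deviations, 5 exceeded 0.1 (-0.289 to 0.376), and 30 pairs of other numbers ran from -0.376 to 0.289. Of 11 libraries, 7 correlated best with their own number. The 2 EZH2 mutant libraries deviate from their mean as mirror images, which weakens the check. The replicate block gave 25 members lower in the EZH2 mutant against wild type, 2 lower and 1 higher in the KMT2D mutant against wild type, 8 lower in the double mutant against wild type, 16 lower and 2 higher against the KMT2D mutant, 3 higher against the EZH2 mutant and 4 for the interaction. Upper-quartile factors moved the median of all genes by -0.164, -0.114 and -0.147 in the EZH2 mutant against wild type and the double mutant against wild type and against the KMT2D mutant, and the genes called higher and lower there numbered 1015 and 1762, 728 and 1318, and 1342 and 2300. In the double mutant against the EZH2 mutant they numbered 88 and 116, and 143 and 204 with both trends removed; in the double mutant against wild type, 1421 and 912 with the GC trend removed. Over all alternatives, 41 to 46 members were below 0 in the EZH2 mutant against wild type, 37 to 44 in the double mutant against wild type and 3 to 7 in the double mutant against the EZH2 mutant. The interaction needs all groups, so the fit restricted to compared groups has no value for it. Low counts limit the 7 members not tested and, among the tested ones, HMMR, DLGAP5, ASPM, BUB1B, ECT2, NCAPH, SMC4, KIF14 and others.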
